A study of Mus musculus with 8 samples.

Results

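The genes described here are 10 components and targets of the LIF-STAT3 and FGF-ERK pathways in mouse embryonic stem (ES) cells, taken by symbol from a table of 23337 genes. The LIF arm holds 5 genes, *Lifr*, *Il6st*, *Jak1*, *Stat3* and *Socs3*, and the ERK feedback arm holds the other 5, *Spry2*, *Spry4*, *Dusp6*, *Etv4* and *Etv5*. The samples were 4 independent ES cell clones, numbered 6, 20, 30 and 36, each sequenced at passage 6 and at passage 16 of expansion in vitro (8 libraries, n = 4 for each passage). All clones were derived from mouse blastocysts with GFP in the Rosa26 locus, and the labels give strain 129S1, a wild type genotype and DMEM with LIF for every library, so that no library lacked LIF. The study's methods add serum replacement as a supplement of the medium and name C57BL6 as the background of 2 cultured clones, without saying which clones these were. A library is 1 culture of 1 clone at 1 passage. In the main test between passages, p-values set the difference against the spread between clones. In tests that pair the libraries by clone, they set it against the spread of that difference over the clones. In the test between clones, they set the clones against how the 2 passages of a clone differ after a shared passage term.

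LIF binds LIFR, which pairs with the shared receptor gp130 and activates JAK kinases. These phosphorylate STAT3, which enters the nucleus, drives genes that keep mouse ES cells in self-renewal and induces its own inhibitor SOCS3. FGF signalling acts through RAS and the kinases MEK and ERK and primes ES cells to leave self-renewal, and active ERK induces Sprouty proteins, the phosphatase DUSP6 and the ETS factors ETV4 and ETV5. Transcript levels of these last genes are in common use as a readout of ERK activity.

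Values are normalized counts, the authors' gene counts divided by 1 size factor per library. The libraries held between 21394069 and 34295561 reads on genes, and a member had at least 1075 reads in every library, so that counting error alone was at most 3.05% of any value. Part of the table is not in register between libraries. Counts can be displaced within 644 groups of names, in which 1 name continues another with a digit. These are called displaced groups below, though not every count in them is out of place. Lines out of order with the next numbered from 2 (clone 6 at passage 6) to 220 (clone 30 at passage 6) per library. None of the 10 genes lies in such a group. The place of their lines in the order is set by the names alone, whatever the counts. A comparison of these lines with their neighbours is therefore no separate check of register. ES cell identity was checked with markers. *Pou5f1*, which encodes OCT4, was between 23589 and 29184 normalized counts and *Nanog* between 6636 and 9071. Of other cell types, 9 fibroblast markers summed to between 3890 and 5907 at passage 6 and between 4539 and 5937 at passage 16, with *Fap* and *Lum* at most 7.74 in any library. The most abundant of them were *Col1a2*, between 1830 and 3646, and *Col1a1*, between 1192 and 2173. The 6 usable primitive endoderm markers summed to between 2348 and 7704 at passage 6 and between 1757 and 6357 at passage 16. The 4 trophoblast markers outside the displaced groups summed to between 353 and 458 at passage 6 and between 288 and 591 at passage 16. *Krt18*, which is in such a group but was fixed by the row order in all 8 libraries, was 884 in clone 6 at passage 16 and at least 3385 in the other 7. The 5 primed epiblast markers summed to between 12611 and 16634 at passage 6 and between 9426 and 13734 at passage 16, and the most abundant of them, *Dnmt3b*, was lower at passage 16 in each clone (log2 difference -0.50, adjusted p = 0.947 from limma). Of these 5 markers, 3 were higher and 2 lower at passage 16, with a median log2 difference of 0.013. The part of these cells in the results below was not tested. The 4 Y-linked genes summed to at least 4536 in clones 20 and 30 and at most 14.2 in clones 6 and 36, and *Xist* was between 76.9 and 185.

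The first question was whether 10 passages of expansion moved either arm. No member of the 10 passed the test between passages (limma on log2(value + 1), adjusted p between 0.947 and 0.992), where 1 of 14791 genes tested (0.00676%) passed. That gene lay in a displaced group. In this fit without a clone term none had an unadjusted p under 0.05, against 3.5% of all genes, and in none were the 4 clones of one passage all above the 4 of the other, against 2.43% of all genes. In two-sided exact permutation tests, p was between 0.143 and 0.914, where 4 clones against 4 allow no p below 0.0286. With the clone number as a replicate block, which pairs the libraries, the count over all genes was 0 in limma, 2 in edgeR and 98 in DESeq2, and no member was among them in any of these fits. With the block, the unadjusted p of *Etv4* was under 0.05 in DESeq2 (adjusted p = 0.560), as it was for 8.46% of 14052 genes. The same held in limma with the block on the genes outside the displaced groups (adjusted p = 0.647), where 7.67% of 12283 genes were under 0.05.

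**Figure D1:**
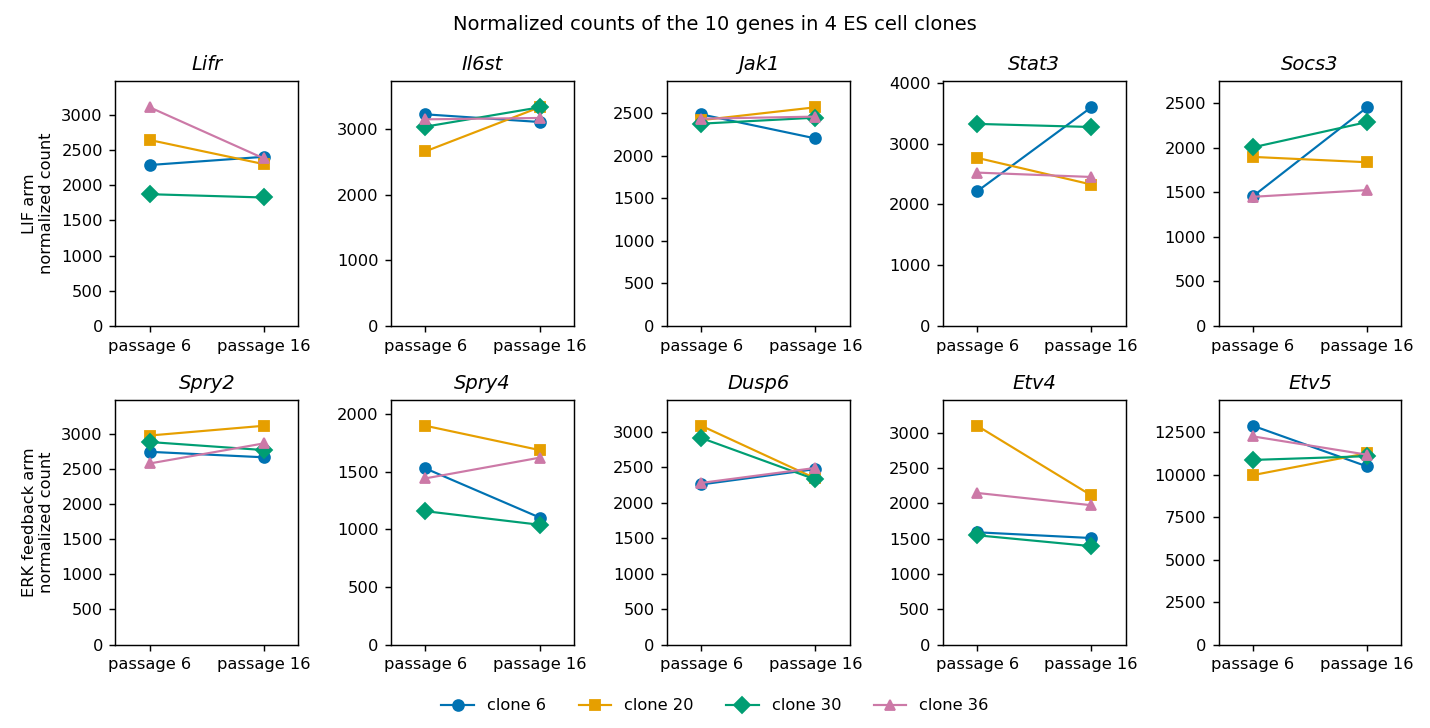
Normalized counts (vertical axes, from 0) of the 10 genes at passage 6 and passage 16, with 1 line per clone. *Stat3* goes from 2217 to 3599 and *Socs3* from 1456 to 2454 in clone 6, *Etv4* is lower at passage 16 in all 4 clones, and the ranges of the passages overlap for all 10 genes.

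The LIF arm begins with the receptor genes. *Lifr*, which encodes the LIF-binding chain, lies on chromosome 15 of GRCm38 from 7090614 to 7197489. At passage 6 its normalized count was 2288 in clone 6, 2643 in clone 20, 1873 in clone 30 and 3108 in clone 36. At passage 16 it was 2404, 2301, 1826 and 2382 in the same order. Clone 30 had the lowest *Lifr* at both passages and clone 36 at passage 6 the highest. The passage means were 2478 ± 525 and 2228 ± 272 (SD, n = 4), with a log2 difference of -0.14 (standard error 0.162), and 3 of 4 clones were lower at passage 16. *Il6st*, which encodes gp130 and lies on chromosome 13 from 112464070 to 112510086, varied much less. Clones 6, 20, 30 and 36 had 3227, 2663, 3040 and 3151 normalized counts at passage 6 and 3110, 3335, 3334 and 3172 at passage 16, with clone 20 at passage 6 as the lowest. Its means were 3020 ± 250 and 3238 ± 114 (SD, n = 4), with a log2 difference of 0.10 (standard error 0.0677). *Jak1*, the kinase bound to gp130, lies on chromosome 4 from 101152367 to 101265282 and was the steadiest of the 10 genes. It had 2487, 2419, 2378 and 2436 normalized counts at passage 6 and 2204, 2570, 2448 and 2460 at passage 16, in the same clone order. Its log2 difference between passages was -0.0076 (standard error 0.0559).

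*Stat3*, which encodes the transcription factor of the arm, is a gene of chromosome 11 (100885098 to 100939540). It stood at passage 6 at 2217 normalized counts in clone 6, 2767 in clone 20, 3325 in clone 30 and 2524 in clone 36. The passage 16 values were 3599, 2328, 3274 and 2452. Both libraries of clone 30 and the passage 16 library of clone 6 stood above the other 5, and clone 6 went from the lowest value of all to the highest. Its difference between passages was 0.70 on the log2 scale in clone 6 and between -0.25 and -0.022 in the other 3 clones. Over the 4 clones the log2 difference was 0.096 (standard error 0.175), and without clone 6 it was -0.10. In GENCODE, 72 exon bases of *Stat3* are shared with *Stat5a* on the opposite strand, and whether reads were counted by strand is not given in the sources used here.

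*Socs3*, which encodes the inhibitor that STAT3 induces, lies on the same chromosome from 117966079 to 117970047. At passage 6 its normalized count was 1456 in clone 6, 1897 in clone 20, 2005 in clone 30 and 1450 in clone 36. At passage 16 it was 2454, 1838, 2289 and 1525. The order was close to that of *Stat3*, with the same 3 libraries above the other 5 and a difference of 0.75 on the log2 scale in clone 6. The means were 1702 ± 291 and 2026 ± 424 (SD, n = 4), and the log2 difference was 0.24 (standard error 0.178). It was 0.14 without the passage 16 library of clone 6 and 0.072 without clone 6. *Socs3* was also the only one of the 8 members found in the promoter table with a match to the STAT motif TTCNNNGAA in the 250 bases before a RefSeq start, searched on both strands. The table has no entry for *Spry4* and *Etv4*. The match, in capitals with 10 bases on each side, begins 154 bases before the start on the minus strand of GRCm38, at chr11:117969502-117969530, where GENCODE has an intron of a longer *Socs3* transcript:
Socs3: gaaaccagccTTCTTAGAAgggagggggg
Of 32851 promoters, 7.02% hold such a match. The ETS motif CCGGAAGT was found in 2.88% of promoters and in none of the 8 members. A match is a description of the sequence and not a site of binding.

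The ERK feedback arm begins with the Sprouty genes, which encode inhibitors of receptor signalling to RAS. *Spry2* lies on chromosome 14 from 105891947 to 105896819 and was nearly level across the clones. For clones 6, 20, 30 and 36 the normalized count was 2747, 2979, 2887 and 2581 at passage 6 and 2669, 3118, 2772 and 2867 at passage 16. Its log2 difference between passages was 0.029 (standard error 0.0672), with 2 clones higher and 2 lower. *Spry4*, on chromosome 18 from 38586247 to 38601415, varied more. At passage 6 its normalized count was 1529 in clone 6, 1899 in clone 20, 1158 in clone 30 and 1443 in clone 36. At passage 16 the clones stood at 1103, 1688, 1040 and 1622. Both libraries of clone 30 and the passage 16 library of clone 6 were here the 3 lowest, and clone 20 was highest at each passage. The means were 1507 ± 306 and 1363 ± 339 (SD, n = 4), with a log2 difference of -0.16 (standard error 0.208).

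*Dusp6*, which encodes a phosphatase of ERK, maps to chromosome 10 between 99263231 and 99267489. At passage 6 the normalized count was 2258 in clone 6, 3086 in clone 20, 2913 in clone 30 and 2280 in clone 36. The values at passage 16 were 2474, 2343, 2328 and 2491, a range narrower than at passage 6. Clones 20 and 30 were lower at passage 16 and clones 6 and 36 higher, and the log2 difference was -0.12 (standard error 0.111). *Etv4*, an ETS factor on chromosome 11 from 101769742 to 101785371, was the most variable of the 10 genes. At passage 6 its normalized count was 1590 in clone 6, 3099 in clone 20, 1548 in clone 30 and 2147 in clone 36. At passage 16 it was 1509, 2113, 1394 and 1974. The order of the clones was 20, 36, 6 and 30 at both passages, and each clone was lower at passage 16, by 0.076 to 0.55 on the log2 scale. This sharing of direction by 4 of 4 clones held for 1 member of 10 and for 17.2% of all genes tested. Over the 4 clones *Etv4* had a log2 difference of -0.23 (standard error 0.243; limma, adjusted p = 0.947), which was -0.017 without the passage 6 library of clone 20. *Etv5*, on chromosome 16 from 22381309 to 22439719, encodes a close relative of ETV4 and had the highest counts of the arm. Its normalized count was 12883 in clone 6, 9978 in clone 20, 10871 in clone 30 and 12257 in clone 36 at passage 6. The later passage gave 10486, 11265, 11091 and 11179, a narrower range. The passages overlapped, with a log2 difference of -0.056 (standard error 0.0811).

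**Figure D2:**
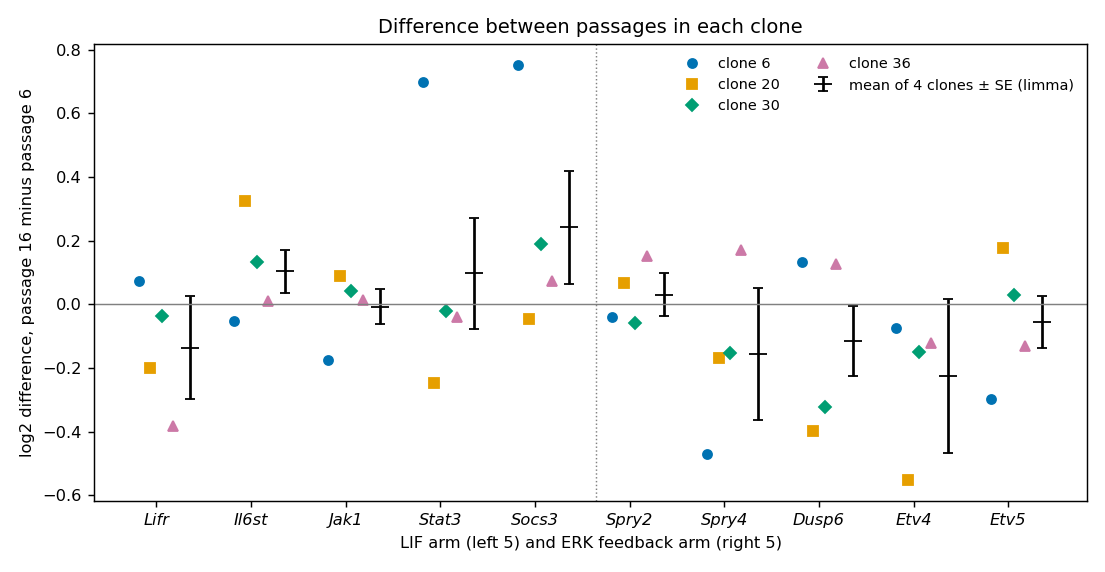
Difference in log2(normalized count + 1) between passage 16 and passage 6, with 1 symbol per clone and a black bar for the mean of the 4 clones ± 1 standard error from limma. Clone 6 stands apart at 0.70 for *Stat3* and 0.75 for *Socs3*, and clone 20 at -0.55 for *Etv4*.

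The levels of the genes were compared per exon length, as normalized counts per kb of merged GENCODE exons. *Etv5* was highest with a mean of 2793 per kb, followed by *Spry2* with 1355 per kb. The range of *Etv5* overlapped with no other gene, and that of *Spry2* (1237 to 1494 per kb) not with the next gene *Dusp6* but with *Etv4*, which reached 1291 per kb. *Dusp6* (902 per kb), *Etv4* (801 per kb) and *Socs3* (730 per kb) came next with ranges that overlapped from one to the next, and *Socs3* did not overlap with *Jak1*. *Jak1* had a mean of 494 per kb, *Stat3* 451 per kb, *Spry4* 302 per kb, *Il6st* 285 per kb and *Lifr* 227 per kb, and each of these ranges overlapped with that of its neighbour. Thus, on these lengths, 4 of the 5 ERK feedback genes stood above all 5 LIF arm genes by mean, with *Spry4* as the exception. The order depends on the lengths, which merge exons over the transcripts of a gene. Reads were counted on a UCSC annotation, and which transcripts the cells used was not tested.

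**Figure D3:**
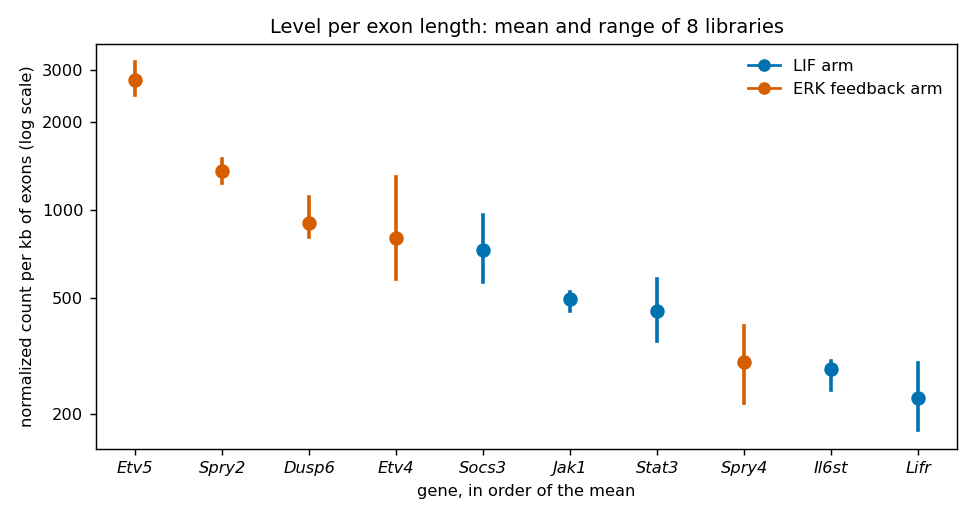
Normalized counts per kb of merged exons (vertical axis, log scale) for the 10 genes in order of their mean, with points for the mean and bars for the range over the 8 libraries. *Etv5* (2793 per kb) lies above the ranges of all other genes, *Etv4* has the longest bar on this log scale (581 to 1291 per kb), and *Lifr* is lowest at 227 per kb.

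The second question was whether the clones differed. In a limma F test of the clone with passage as a term, where the 2 passages of a clone stand in as its replicates, none of the 10 members passed at an adjusted p under 0.05, against 20 of 14791 genes (0.135%). An unadjusted p under 0.05 was found for 3 of 10 members against 10.7% of all genes, with adjusted p from limma of 0.321 for *Etv4*, 0.442 for *Spry4* and 0.442 for *Lifr*. The DESeq2 likelihood ratio test on the recovered reads called these 3 genes, with adjusted p of 1.01e-05 for *Etv4*, 0.0155 for *Spry4* and 0.0211 for *Lifr*, where it called 7.76% of 14436 genes. When limma was fitted only on the 12283 genes outside the displaced groups, 62 genes (0.505%) passed between clones and no member did. Over the other alternatives the adjusted p from limma or edgeR was never below 0.0952 for *Etv4*, 0.197 for *Spry4* or 0.213 for *Lifr*. *Stat3* (unadjusted p = 0.384) and *Socs3* (unadjusted p = 0.194) had less clone difference beside the difference within clone 6. With both libraries of clone 6 left out, these limma p-values were 0.0139 and 0.00805, with adjusted p of 0.218 and 0.195, in a fit where 15.9% of all genes had an unadjusted p under 0.05. With clone 30 left out instead, *Spry4* had an unadjusted limma p of 0.137, *Lifr* of 0.365 and *Etv4* of 0.0214, in a fit where that share was 3.3%. The p-values quoted for these fits moved in the direction of that share, but not all members did so. Without clone 6 the unadjusted limma p of *Etv4* rose from 0.00622 to 0.0100. Without clone 30 those of *Dusp6*, *Etv5*, *Il6st*, *Jak1* and *Spry2* fell, that of *Spry2* from 0.217 to 0.187.

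The members differed in how far they varied. The ratio of the highest to the lowest library was 1.17 for *Jak1*, 1.21 for *Spry2*, 1.25 for *Il6st*, 1.29 for *Etv5* and 1.37 for *Dusp6*. It was 1.62 for *Stat3*, 1.69 for *Socs3*, 1.70 for *Lifr*, 1.83 for *Spry4* and 2.22 for *Etv4*. The median over the 4878 genes outside the displaced groups with a mean of at least 1000 was 1.25, with the middle 50% of genes between 1.17 and 1.39. *Etv4* exceeded 96.6% of those genes, *Spry4* 93.5%, *Lifr* 91.0%, *Socs3* 90.9% and *Stat3* 88.6%. *Dusp6* exceeded 71.3%, *Etv5* 58.6%, *Il6st* 49.8%, *Spry2* 37.2% and *Jak1* 23.1%, so that 7 of the 10 members varied more than the median gene.

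The arms were compared by the mean of their 5 genes, each centred on its own mean over the libraries. Between passages the mean log2 difference was 0.059 for the LIF arm (SD over 4 clones 0.143) and -0.10 for the ERK arm (SD over 4 clones 0.0975), beside a median of -0.0037 over all genes. In the LIF arm 3 genes were higher and 2 lower at passage 16, and in the ERK arm 1 was higher and 4 were lower. By clone, the LIF arm differed by 0.26 in clone 6, -0.017 in clone 20, 0.061 in clone 30 and -0.066 in clone 36. The ERK arm differed by -0.15, -0.18, -0.13 and 0.039 in the same order. No test was made of these means, since the genes of an arm are not replicates.

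Across libraries the centred LIF arm mean was highest in clone 6 at passage 16 (0.14), in clone 30 at passage 16 (0.065) and in clone 30 at passage 6 (0.0036). Clone 20 at passage 6 was almost level with the last of these, at 0.00091. The ERK arm mean was lowest in the 3 libraries named first, at -0.17, -0.20 and -0.068. The LIF arm minus the ERK arm was positive in these 3 libraries, between 0.072 and 0.31, and negative in the other 5, between -0.27 and -0.027. The lowest difference was that of clone 20 at passage 6, where the ERK arm was at 0.28.

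**Figure D4:**
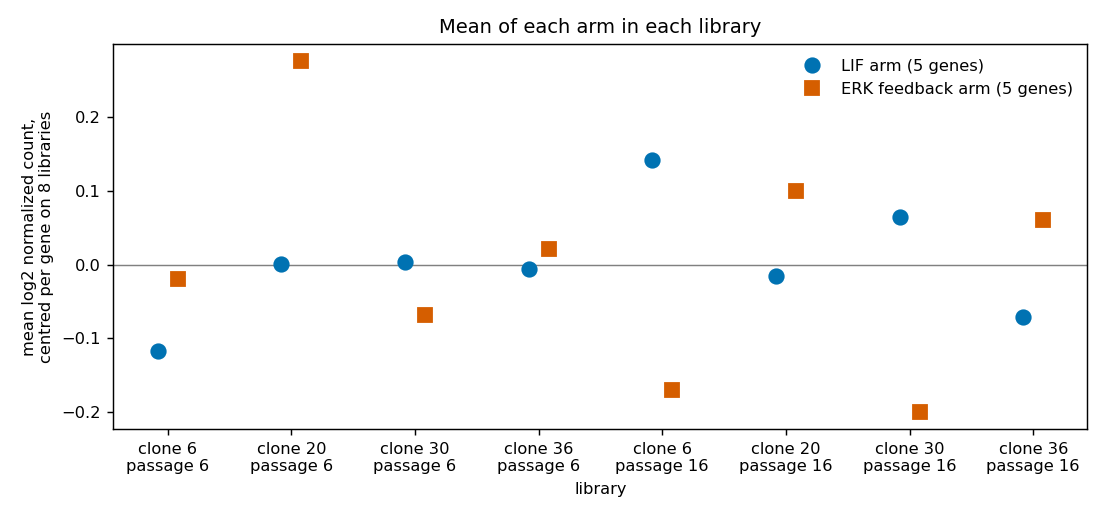
Mean log2 normalized count of each arm in each library, each gene centred on its mean over the 8 libraries. The LIF arm lies above the ERK arm in clone 6 at passage 16 (by 0.31) and in both libraries of clone 30, and below it in the other 5 libraries.

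This order of libraries was noticed after the values were seen. Of the 10 genes, *Stat3* and *Socs3* had both libraries of clone 30 and the passage 16 library of clone 6 above the other 5, and *Spry4* and *Etv4* had them below. Among 12283 genes outside the displaced groups, 11% had these 3 libraries above and 11.2% had them below, so the order was widespread in these libraries and not particular to the pathway. Of 81 other pathway genes tested, 9 had the 3 libraries above and 15 below. *Egr1*, an immediate early gene that ERK induces, was 10670 and 10762 in clone 30 and 11724 in clone 6 at passage 16, and between 1542 and 4031 in the other 5 libraries. *Fgfr2*, an FGF receptor gene, was 1305, 1434 and 1303 in the same 3 libraries and between 766 and 1089 elsewhere. *Dusp4*, which encodes another phosphatase of ERK, was between 578 and 638 in the 3 libraries and between 809 and 925 in the others. So ERK target and feedback genes did not share 1 order: *Egr1* was high where *Spry4*, *Etv4* and *Dusp4* were low. The sum of the primitive endoderm markers moved with this order, at 2348 and 1757 in clone 30 and 2620 in clone 6 at passage 16 against 3192 to 7704 in the other 5 libraries. *Pdgfra*, 1 of these markers, did not follow it fully, with 414 in clone 20 at passage 6 against 455 in clone 6 at passage 16. In a bulk library, fewer cells of a type and less RNA per cell cannot be told apart, and the part of these cells in the values of the 10 genes was not tested. The Y-linked genes did not follow the order, since they were present in clone 30 and absent from clone 6.

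**Figure D5:**
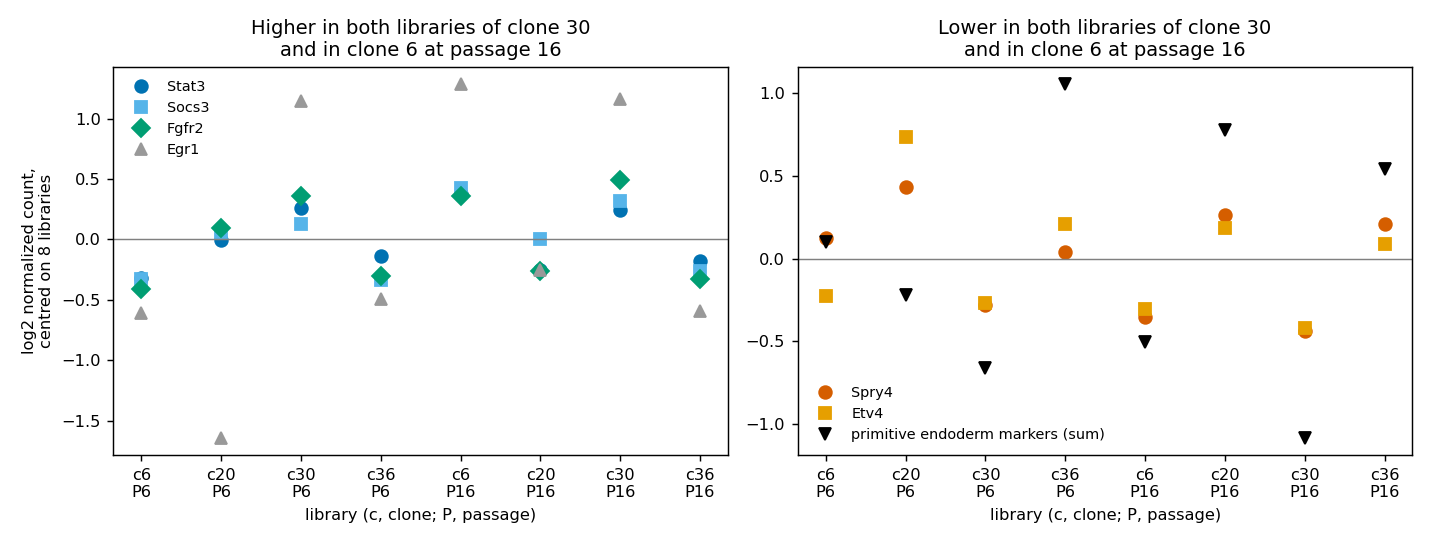
Log2 normalized counts centred on the mean of the 8 libraries, for genes high (left) and genes or marker sums low (right) in both libraries of clone 30 and in clone 6 at passage 16. *Egr1* was at least 10670 normalized counts in those 3 libraries and at most 4031 in the others, and the primitive endoderm marker sum was at most 2620 against at least 3192.

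The other genes of both pathways were read from lists of 93 genes by role, of which 81 were tested, outside the displaced groups and with a mean of at least 10. None passed between passages, and none passed between clones. Unadjusted p was under 0.05 for 5 of them (6.17%) between passages, against 3.18% of all genes outside the groups, and for 17 (21.0%) between clones, against 10.4%.

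Of the LIF family ligands, 4 of 7 were tested and all 4 were lower at passage 16, with a median log2 difference of -0.30. Apart from *Lif* these had low counts, with passage 6 and passage 16 means of 16.3 and 13.6 for *Il11*, 29.9 and 23.0 for *Osm* and 59.0 and 51.6 for *Ctf1*. *Lif* itself was 504 ± 23.5 at passage 6 and 419 ± 65.1 at passage 16 (SD, n = 4), a log2 difference of -0.28 (standard error 0.123), and each clone was lower at passage 16. Among the 4 other receptors of the family, *Cntfr* had the highest mean, with 1197 ± 248 and 1298 ± 98.5 (SD, n = 4), and *Osmr* the lowest p, with a log2 difference of -0.33 (standard error 0.334). Of the 9 other JAK and STAT genes, 5 were higher and 4 lower. *Jak3*, a kinase of cytokine receptors, had a log2 difference of 0.21 (standard error 0.0899), with a higher value at passage 16 in each clone.

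Of 10 other inhibitors of JAK-STAT signalling tested, 4 were higher and 6 lower at passage 16. *Socs2* had the highest mean, with 2796 ± 462 and 2633 ± 259 (SD, n = 4), and *Cish* the lowest p, with a log2 difference of -0.39 (standard error 0.185). Of 9 STAT3 target genes, 6 were higher and 3 lower, with a median of 0.11. *Klf4*, a pluripotency factor downstream of STAT3, was 4651 in clone 6, 4350 in clone 20, 4970 in clone 30 and 5283 in clone 36 at passage 6. At passage 16 it was 6549, 5636, 5586 and 5546, above every passage 6 value. The passages also did not overlap for *Lif*, *Jak3* and *Sos2* of these lists, and for 2.43% of all genes tested. Its log2 difference was 0.28 (standard error 0.0792), with an unadjusted p of 0.00836 and an adjusted p of 0.947 from limma. *Tfcp2l1*, another target, had the highest mean, with 6243 ± 588 and 6633 ± 475 (SD, n = 4), and a log2 difference of 0.089 (standard error 0.0797).

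On the FGF side, *Fgf4*, the main FGF ligand of ES cells, had 3129 ± 216 and 3346 ± 781 normalized counts (SD, n = 4). The 4 FGF ligands tested had log2 differences between 0.0065 and 0.077. Of the other ligands, *Fgf10* (50.3 to 236), *Fgf15* (at most 285) and *Fgf17* (125 to 396) lie in displaced groups but their counts were fixed by the row order in all 8 libraries, while those of *Fgf1* and *Fgf2* were fixed in some libraries only. *Fgfr1*, the most abundant receptor, was 3789 ± 610 and 4308 ± 655 (SD, n = 4) and higher at passage 16 in each clone, with a log2 difference of 0.19 (standard error 0.138). *Fgfrl1*, which encodes a receptor without a kinase, had 0.16 (standard error 0.105).

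Of 9 adaptor and RAS genes tested, 3 were higher and 6 lower. *Nras* had a log2 difference of -0.14 (standard error 0.0518), each clone being lower at passage 16, and *Sos2*, a RAS activator, had 0.23 (standard error 0.0964), each clone being higher. *Gab1*, an adaptor, had the highest mean, with 10968 ± 1072 and 10844 ± 711 (SD, n = 4). *Ptpn11*, the phosphatase SHP2 of both pathways, lies in a displaced group. Its row order allowed 1 count in each library, between 3935 and 4632. Of 7 kinase genes tested, 5 were higher and 2 lower at passage 16, and *Ksr1*, a scaffold of the cascade, had the lowest p, with a log2 difference of 0.20 (standard error 0.150).

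Of 10 other feedback inhibitors of ERK, 2 were higher and 8 lower, with a median of -0.054. *Dusp9*, an X-linked phosphatase of ERK and the most abundant of the list, was 4666 ± 508 and 5353 ± 326 (SD, n = 4), a log2 difference of 0.20 (standard error 0.0855, adjusted p = 0.947 from limma), with each clone higher at passage 16. Of 10 other ERK target genes, 5 were higher and 5 lower, with a median of -0.0017. *Egr1* had the highest mean of that list and a log2 difference of 0.80 (standard error 0.655), with 1.90 in clone 6, 1.39 in clone 20, 0.012 in clone 30 and -0.10 in clone 36. *Ccnd1*, which encodes cyclin D1, had the lowest p, with -0.23 (standard error 0.191).

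The genes most like each arm were sought by Pearson correlation with the centred arm mean over the 8 libraries, among 9434 genes with a mean of at least 100. The 8 libraries are 4 clones at 2 passages and not independent, and the values are a description. For the LIF arm these were *Pomt1* (r = 0.976), *Exoc4* (r = 0.975), *Gna11* (r = 0.970), *Gpatch8* (r = 0.965) and *Mxd3* (r = 0.960), each highest in clone 6 at passage 16 and lowest in clone 6 at passage 6. For the ERK arm they were *Snai3* (r = 0.986), *Sult4a1* (r = 0.971), *Nfkb2* (r = 0.970), *Camsap1* (r = 0.968) and *Sh3gl2* (r = 0.966), each highest in clone 20 at passage 6. No gene of the pathway lists was among either 5.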

How the data were processed

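PolyA+ RNA of 8 ES cell cultures was sequenced. According to the methods, TopHat 2.0.10 with Bowtie 1.0.0 placed the single-end reads on GRCm38, and HTSeq 0.5.3p9 counted them by gene. What the authors deposited is a normalized signal, gene counts scaled by DESeq2. Multiplying by the smallest factor that made values whole (within 0.001) gave whole reads for 100% of values in each library.

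Passage and clone of each sample come from its label. The main test was limma (version 3.58.1, R 4.3.3), with a mean-variance trend, two-sided and without a clone term, applied to log2(value + 1) of the 14791 genes whose mean reached 10. Adjusted p (Benjamini-Hochberg) under 0.05 counted as passing. Differences of low genes are understated by the added 1. Clones were compared with the F test of the clone term beside passage. edgeR (4.0.16) and DESeq2 (1.42.0) were run on the recovered reads as alternatives. Only limma models of the same form were tested on simulated counts, and not edgeR, DESeq2 or the handling of displaced rows. The clone numbers pair the libraries as 1 cell line each. Deviations from the passage means correlated across genes within a clone with r = 0.0956 (clone 6), 0.271 (20), 0.701 (30) and 0.433 (36). Clone 6 at passage 6 correlated more with clones 36 (0.281) and 20 (0.168) at passage 16 than with its own number, so for clone 6 the pairing rests on the labels.

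Groups that can hold displaced rows were defined from the names, given the sort order of the lines, in which a name and its count form 1 string. The 5080 names in these groups (21.8%) were left out of counts over lists, whether or not their counts were displaced. *Hras* and *Plet1* are not analysed here. Values of some other pathway genes are not reported here. Positions are from GENCODE (vM21) and promoters from RefSeq (GRCm38.p6). Of the pathway lists, genes past a threshold were to be named, otherwise the one with the lowest p and the one with the highest mean, and the 5 genes most like each arm. *Fgfr2*, *Dusp4*, *Sos2*, *Fos* and *Ptpn11* were singled out after their values were seen. The members and lists were chosen with earlier results of these data known.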

Additional observations from a re-analysis of the deposited data

Results flagged for a closer look

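In 32 groups of 4 values (each member at each passage, and the differences by clone of each member and arm), 2 held a value far from the other 3 by the ratio of its gap to the range, and chance gives about 1 in 20 such groups. The log2 level of *Lifr* in clone 30 at passage 16 was 10.84, where the other clones lay between 11.17 and 11.23 (ratio 0.840), and clone 30 was also the lowest at passage 6. The difference of *Etv4* between passages in clone 20 was -0.55 against -0.15 to -0.076 in the other clones (ratio 0.842). No cause was tested for either value.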

How the results depend on the processing

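No member and no other pathway gene tested passed between passages in any of the 25 alternatives, of which 1, the replicate block on genes outside the displaced groups, was chosen after seeing the data. The count over all genes, 1 as reported, was 0 without the displaced groups, 46 with DESeq2, and 0 (limma, and limma without the displaced groups), 2 (edgeR) and 98 (DESeq2) with the replicate block. Leaving out a passage 6 library gave 1 to 13 genes (13 without clone 30), a passage 16 library 2 to 12 (12 without clone 30), and a clone 3 to 26 (26 without clone 30). All genes passing with a library or clone left out lay in displaced groups, where rows can be out of register. So did those passing in limma and edgeR. Outside these groups lay 5 of the 46 from DESeq2 and 56 of the 98 from DESeq2 with the block. Between clones, 20 genes passed as reported, 62 without the displaced groups, 1120 with DESeq2, 19 to 109 without a passage 6 library (109 without clone 6), 16 to 165 without a passage 16 library (165 without clone 6) and 0 to 95 without a clone (0 without clone 20, 95 without clone 6). Of the members 3 passed with DESeq2 and 0 otherwise. Of the other pathway genes, 12 passed with DESeq2, 1 without the displaced groups, and 0 to 1 with a library or clone left out (*Fos* without clone 20 at passage 16). The sign of the passage difference turned for 4 members with differences near 0. It was 0.0069 for *Jak1* with quantile normalization. Without 1 passage 6 library, 1 passage 16 library or 1 clone, in this order, it ranged from -0.018 to 0.0036, from -0.037 to 0.037 and from -0.039 to 0.048 for *Jak1*. For *Stat3* it ranged from 0.0055 to 0.20, from -0.013 to 0.20 and from -0.10 to 0.21, and was negative without clone 6 at passage 16 or at both. For *Spry2* it ranged from -0.0089 to 0.060, from -0.014 to 0.061 and from -0.011 to 0.059, and for *Etv5* from -0.12 to 0.00068, from -0.068 to -0.033 and from -0.13 to 0.024. The other 6 members kept their sign but moved widely with 1 library or clone left out. *Socs3* ranged from 0.072 (without clone 6) to 0.37 (without clone 36 at passage 16) and *Il6st* from 0.030 (without clone 20) to 0.16 (without clone 6). *Lifr* ranged from -0.26 (without clone 30 at passage 6) to -0.020 (without clone 36 at passage 6), *Spry4* from -0.28 (without clone 30 at passage 6) to -0.038 (without clone 30 at passage 16), *Dusp6* from -0.20 (without clone 6) to -0.021 (without clone 20) and *Etv4* from -0.35 (without clone 30 at passage 6) to -0.017 (without clone 20 at passage 6). The replicate block changed no call of a member. The arm means kept within 1 SD, at -0.0070 to 0.10 (LIF) and -0.16 to -0.030 (ERK). Counting error was at most 3.05% for the members, and the spread between 4 clones sets the precision.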
